A study of Takifugu rubripes with 9 samples.

Results

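The muscle microRNAs (miRNAs) miR-1 and miR-206 were followed through 8 small RNA libraries of the pufferfish *Takifugu rubripes* (torafugu). The tissues were slow muscle, heart, eye, brain, intestine, liver, ovary and testis. The study describes no treatment or genetic change of the fish. The tissues were dissected from 2 adult fish, and 1 library was made per tissue, so the data hold no replicate error. Fast muscle, the ninth tissue of the series, was not analysed here. The members were all reads annotated under the names mir-1 and mir-206, which are 2 of the 377 names in the deposited annotation. They held 162 of 8194 distinct sequences and 324059 of 5232809 annotated reads. Of these, mir-1 had 106 sequences and 255918 reads, and mir-206 had 56 sequences and 68141 reads.

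A miRNA is cut from a hairpin precursor that gives a 5p strand and a 3p strand, and the strand loaded into an Argonaute protein recognises mRNAs mainly through its seed, bases 2 to 8. miR-1 and miR-206 form one family because their 3p strands carry the same seed. In vertebrates they are known as muscle miRNAs that repress genes of the undifferentiated myoblast and favour differentiation. In mammals miR-1 is made in heart and skeletal muscle, whereas miR-206 is largely restricted to skeletal muscle.

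The most abundant sequences of each strand are shown with the seed in capitals, because the levels and ends described here are counted from them. The last of them is the most abundant sequence filed under another name, mir-3571, which carries the same seed. All are written 5′ to 3′ as in the deposited files.
miR-1-3p: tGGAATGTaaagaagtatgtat
miR-206-3p: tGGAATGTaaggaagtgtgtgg
miR-1 5p strand: aCATACTTctttatgtacccat
miR-206-5p: aCATGCTTccttatatccccat
mir-3571: tGGAATGTaaagaagtgtgtat

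The 3p strands shown were identical at 18 of 22 positions. Counted from 1 at the 5′ end, with the miR-1-3p base first, they differed by A11G, A17G, A21G and T22G, all outside the seed. The 5p strands also differed at 4 of 22 positions (A5G, T10C, G15A and A17C, miR-1 base first). The first of these lies in the seed, so the 5p strands had the seeds CATACTT and CATGCTT. The mir-3571 sequence differed from miR-1-3p by A17G. The miR-206-3p sequence shown also has G there, but the one that the study lists for torafugu has A.

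The entries that the reads matched were not all torafugu entries. Of the miR-1-3p reads, 90.5% matched a *T. rubripes* entry. The miR-206-3p reads matched zebrafish (*Danio rerio*, 91.6%), pig (8.33%) or carp entries, and miR-206-5p matched the flounder *Paralichthys olivaceus*. The study lists another sequence for the torafugu miR-206-3p, tGGAATGTaaggaagtatgtgg, which differs from the one shown first by G17A. The study's list is described as giving the most abundant sequence of each miRNA. The listed miR-206-3p sequence had 0 reads in the 8 files, so the miR-206-3p levels and shares cover reads that matched the other entries. The miR-206-3p sequence shown first is the most abundant among those reads only. The annotation allowed no mismatch, so a variant appears only where some entry matches it. In the RefSeq gene table of the assembly fTakRub1.2, 1 member gene was listed, mir1. The miRNA gene before it on chromosome 22 was mir133, a gene of another muscle miRNA family.

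The libraries held 54540 (testis) to 1207961 (intestine) annotated reads. Annotated reads were 33.1% to 37.7% of the 18 to 25 nt reads in the somatic tissues, 11.3% in ovary and 2.58% in testis. Levels are RPM, the reads of a name per 1e6 reads of 18 to 25 nt, annotated or not. Tissue labels were checked with marker miRNAs. Liver miR-122 was at 48795 RPM in liver and at most 105 RPM elsewhere, the summed intestine list was at 167094 RPM in intestine, and the eye list was at 36372 RPM in eye. Gonad miR-202 was at 255 RPM in ovary but only 4.73 RPM in testis (10 reads), and had no read with an arm elsewhere. The brain list (miR-124, miR-9, miR-128 and miR-138) summed to 110736 RPM in eye and 103103 RPM in brain. Most of that was miR-124 (108001 RPM in eye and 76111 RPM in brain). The other members were higher in brain than in eye, miR-9 at 11064 against 1732 RPM, miR-128 at 7765 against 631 RPM and miR-138 at 8164 against 373 RPM. The slow muscle library also held 6475 RPM of the intestine list and 2122 RPM of the eye list, against 290 and 161 RPM in heart. Of the eye list in slow muscle, miR-204 made up 2115 RPM. The other eye markers were near absent there, with miR-183 at 7.27 RPM, 1 read of miR-182 and no read of miR-96. The part of other tissue in the members' levels was not tested.

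miR-1-3p was the most abundant name in slow muscle and in heart. It was at 72651 RPM in slow muscle (139838 reads, 19.3% of annotated reads) and at 41867 RPM in heart (105563 reads, 12.0%). The eye followed at 3827 RPM (5310 reads), where it ranked 14th of 412 names. Brain had 716 RPM (1908 reads) and intestine 708 RPM (2420 reads). The lowest levels were 78.6 RPM in ovary (374 reads), 61.4 RPM in liver (74 reads) and 1.89 RPM in testis (4 reads). The order thus ran from slow muscle to testis, with reads in all 8 libraries. Brain and intestine did not differ beyond counting error (ratio 1.01, exact 95% Clopper-Pearson interval 0.952 to 1.07), nor did ovary and liver (1.28, 0.994 to 1.66). By these RPM, every other neighbouring step did. The sizes of the steps from intestine to testis, however, depended on the read total used as the denominator. As a share of annotated reads, miR-1-3p was at 0.200% in intestine, 0.0696% in ovary, 0.0169% in liver and 0.00733% in testis. Whether those shares differ beyond counting error was not tested.

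miR-206-3p was the second most abundant name in slow muscle, at 34615 RPM (66626 reads, 9.19% of annotated reads). Its next level was in eye, at 693 RPM (962 reads). Heart, where miR-1-3p led all names, had 40.5 RPM of miR-206-3p (102 reads), and brain had 11.6 RPM (31 reads). Liver had 9.13 RPM (11 reads), intestine 3.22 RPM (11 reads) and ovary 0.840 RPM (4 reads). No read was found in testis, where 3 reads would be 1.42 RPM. The levels of brain and liver did not differ beyond counting error (ratio 1.27, 0.623 to 2.81), nor did those of ovary and testis (interval from 0.293 upward). In slow muscle, miR-1 and miR-206 together made up 28.6% of annotated reads, against 12.0% in heart, 1.37% in eye and at most 0.209% in the other libraries.

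**Figure D1:**
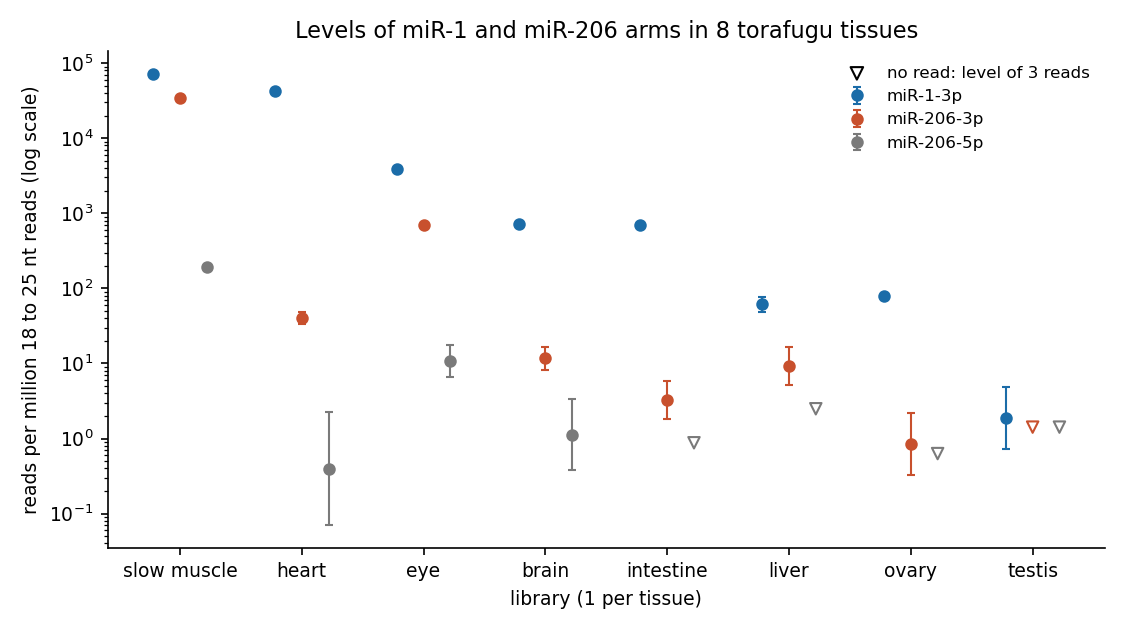
Level of miR-1-3p, miR-206-3p and miR-206-5p (RPM, log scale) in each of the 8 libraries, with 95% Wilson intervals that cover counting error only; open triangles mark 0 reads at the level of 3 reads. In heart miR-1-3p sits at 41867 RPM and miR-206-3p at 40.5 RPM, whereas in slow muscle they sit at 72651 and 34615 RPM.

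These levels come from bulk tissue, so fewer muscle cells and less miRNA per cell cannot be told apart. The members were taken for their known muscle pattern, so their order over tissues is a description. Specificity was summarised by tau, which is 0 for equal levels in all libraries and 1 for a name found in a single library. Tau was 0.997 for miR-206-3p and 0.907 for miR-1-3p, and 41.4% of the names that reached 100 RPM anywhere, precursor-only reads counted as names of their own, had a tau of 0.9 or more. With annotated totals as the denominator, tau of miR-1-3p was 0.899, just under that value. On the log2(RPM + 1) scale it was 0.469 for miR-1-3p and 0.765 for miR-206-3p. By tau, miR-206-3p was 9th and miR-1-3p 89th among those names. Slow muscle was the highest library of 25 of those names, and slow muscle and heart were the highest pair of libraries for 25.

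Between slow muscle and heart, the members parted. miR-1-3p was 1.74 times higher in slow muscle (1.72 to 1.75), and miR-206-3p was 856 times higher (705 to 1049.5). By the rule applied to all names (two-sided exact binomial test with Benjamini-Hochberg adjusted p under 0.05, at least 1.5-fold, and 1000 RPM in the higher library), both were called higher in slow muscle, beside 7.53% of the 478 names called in either direction. The test is made on the reads of a pair of libraries and compares those libraries, not the tissues. miR-206-3p had the second largest ratio toward slow muscle of the 478 names, and miR-1-3p ranked 155th. The study, which also counted reads by looser matching, gives a smaller ratio for miR-206-3p between slow muscle and heart.

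Between slow muscle and eye, the ratio was 18.98 for miR-1-3p (18.5 to 19.5) and 49.9 for miR-206-3p (46.8 to 53.3). Both were called, beside 12.3% of names. Between heart and eye, miR-1-3p was 10.9 times higher in heart (10.6 to 11.2) and was called, beside 10.5% of 488 names. For miR-206-3p the direction turned, and its level was 17.1 times higher in eye than in heart (13.96 to 21.2). It reached no 1000 RPM in either library and so was not called. Between eye and brain, both were higher in eye, by 5.34 times for miR-1-3p (5.07 to 5.63) and 59.6 times for miR-206-3p (41.7 to 88.2). Of these, miR-1-3p was called, beside 9.28% of 517 names, and miR-206-3p stayed below 1000 RPM.

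The reads of the strands were then compared within each library, which does not depend on the library total. All miR-206-3p reads matched entries of other species without a mismatch, while most miR-1-3p reads matched a torafugu entry. The intervals do not cover reads that either name missed for this reason. The study, which also counted reads by looser matching, gives higher miR-206-3p levels than here in slow muscle and heart. Relative to the levels here, the study's miR-206-3p level was raised more in heart than in slow muscle. How far loss of reads accounts for this, or differs between the other libraries, was not tested. There were 0.476 miR-206-3p reads per miR-1-3p read in slow muscle (exact 95% Clopper-Pearson interval 0.472 to 0.481) and 0.181 in eye (0.169 to 0.194). The ratio was 0.149 in liver (0.0711 to 0.282), from 11 and 74 reads. Brain followed at 0.0162 (0.0110 to 0.0231), ovary at 0.0107 (0.00290 to 0.0276) and intestine at 0.00455 (0.00227 to 0.00815). The lowest ratio among libraries with miR-206-3p reads was that of heart, 0.000966 (0.000788 to 0.00117), or 1 miR-206-3p read to 1035 miR-1-3p reads.

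Among libraries with at least 100 reads of both strands together, slow muscle and eye were thus the richest in miR-206-3p relative to miR-1-3p, and heart was the poorest. Of the 28 pairs of libraries, 18 differed by two-sided Fisher's exact tests after Benjamini-Hochberg adjustment. Slow muscle differed from eye (32.3% against 15.3% miR-206-3p among the reads of both strands, Fisher's exact adjusted p = 6.6e-200) and heart from intestine (0.0965% against 0.452%, Fisher's exact adjusted p = 9.7e-05). Eye and liver did not pass (15.3% against 12.9%, Fisher's exact adjusted p = 0.83), and the interval of liver was wide, 7.38% to 21.7%. The 4 reads of testis allow no statement, as 7 of the 10 pairs that did not pass included testis.

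**Figure D2:**
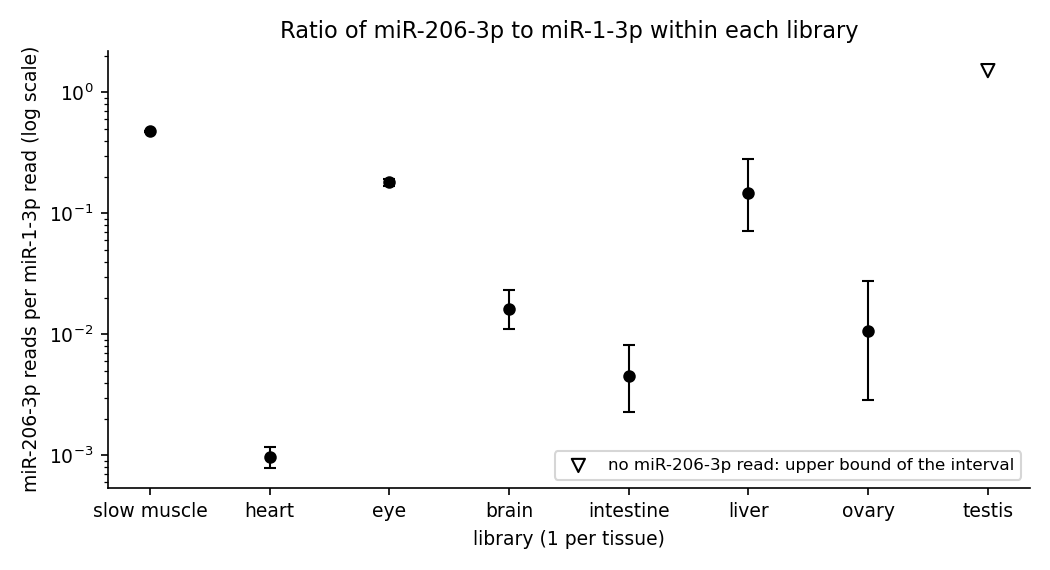
miR-206-3p reads per miR-1-3p read within each library (log scale), with exact 95% intervals; the open triangle is the upper bound for testis, which had no miR-206-3p read. The points run from 0.476 in slow muscle to 0.000966 in heart, with eye at 0.181 and liver at 0.149.

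The other muscle miRNAs were read beside the members. The list held the numbers miR-133, miR-208, miR-499, miR-486 and miR-378, of which 11 arm names were found. miR-133 is encoded next to miR-1 in vertebrates and acts on muscle proliferation and differentiation, and miR-499 lies in a myosin heavy chain gene. All 11 were names of miR-133 or miR-499. In no library did the other numbers have a read with an arm as the first name of a sequence, and precursor-only reads were left out. Between slow muscle and heart, 2 of the 11 names were called higher in slow muscle (miR-133-3p and miR-133b-3p) and 1 higher in heart (miR-499-5p). Over all 478 names, 14 were called higher in slow muscle and 22 in heart. The median log2 ratio of the list was 1.44, against -0.04 over all names. Between slow muscle and eye, 3 of 11 were called higher in slow muscle and none in eye (median log2 ratio 4.39 against 0.28 over all names), beside 35 and 25 over all names. Between heart and eye, 2 of the 9 tested were called higher in heart (median log2 ratio 3.39 against 0.36), beside 34 of all 488 names. Between eye and brain 0 of 8 were called (2.71 against -0.64), beside 17 of all 517 names called higher in eye and 31 in brain.

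The level of miR-133-3p was 17397 RPM in slow muscle, 1830 RPM in heart, 432 RPM in eye and 0.473 to 87.1 RPM in the other 5 libraries. The order was another for miR-499-5p, which was led by heart (8168 RPM) ahead of slow muscle (3745 RPM), with 383 RPM in eye and at most 10.9 RPM elsewhere. Relative to slow muscle, the eye thus held 2.48% of the miR-133-3p level and 10.2% of that of miR-499-5p, beside 5.27% of miR-1-3p and 2.00% of miR-206-3p. Each of these 4 names was present in the eye library, at 2.00% to 10.2% of its slow muscle level. Their part in the levels of miR-1 and miR-206 in eye was not tested.

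Relative to miR-1-3p, the other muscle miRNAs took different shares in different libraries. Per miR-499-5p read, the intestine had 121 miR-1-3p reads (exact interval 78.2 to 198) and brain 65.8 (45.7 to 98.5), and these intervals overlap. The ovary had 374 miR-1-3p reads and no miR-499-5p read, an interval from 101 upward. These ratios were above those of slow muscle (19.4, 18.9 to 19.9), eye (9.98, 9.13 to 10.9), liver (7.40, 3.81 to 16.1) and heart (5.13, 5.05 to 5.20). For miR-133-3p the order was another. Heart had the most miR-1-3p reads per miR-133-3p read, 22.9 (22.2 to 23.6), followed by intestine with 17.8 (14.97 to 21.3), while eye had 8.86, brain 8.22, liver 5.29, ovary 4.25 and slow muscle 4.18. Heart also led per miR-133b-3p read, with 237 (216 to 261) against 96.8 in intestine (65.4 to 149.9) and 11.99 in slow muscle (11.8 to 12.2). The intestine thus held more miR-133 relative to miR-1-3p than heart did, and less miR-499-5p. The sum of smooth muscle miR-143 and miR-145 was led by the ovary with 66970 RPM, of which miR-145 made up 65889 RPM. On its own, miR-143 was highest in intestine (1103 RPM), ahead of ovary (1081 RPM) and slow muscle (642 RPM). By the sum, intestine (59244 RPM) and liver (41183 RPM) came after ovary, ahead of heart (34971 RPM) and slow muscle (32015 RPM). The other libraries had at most 12618 RPM. Neither order was that of miR-1-3p. These ratios were chosen after the levels had been seen.

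**Figure D3:**
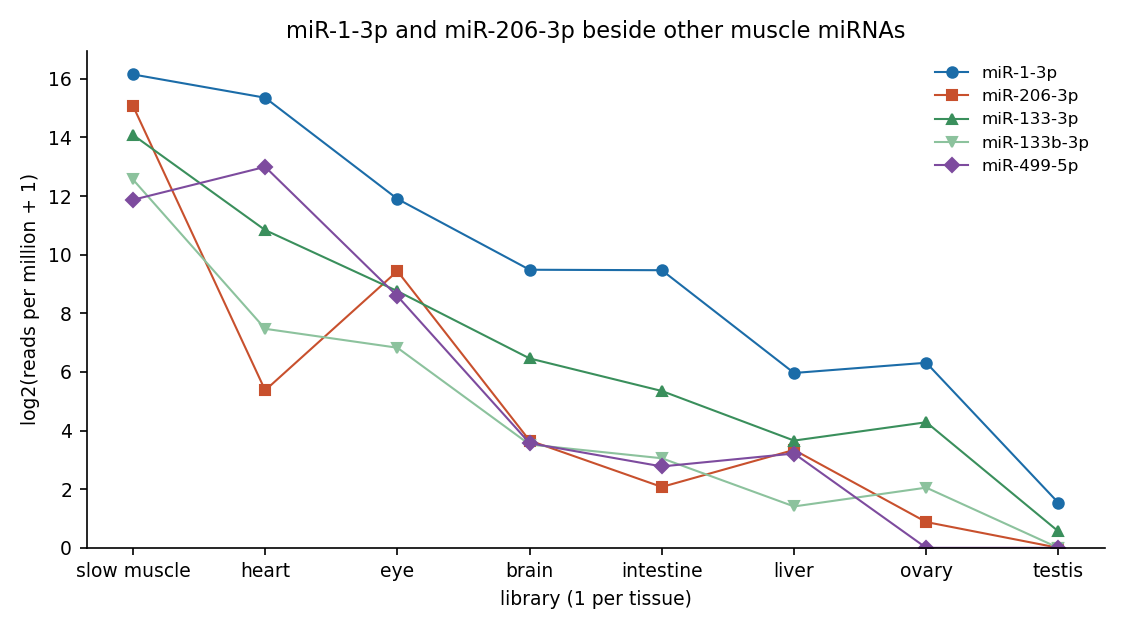
log2(RPM + 1) of miR-1-3p, miR-206-3p and the muscle miRNAs miR-133-3p, miR-133b-3p and miR-499-5p in the 8 libraries; the lines join the points of a name. In heart, miR-206-3p is at 40.5 RPM and miR-499-5p at 8168 RPM, against 34615 and 3745 RPM in slow muscle.

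Patterns most like those of the members were ranked by Pearson's r of log2(RPM + 1) over the 8 libraries, among the 164 other names with an arm that reached 100 RPM, precursor-only names left out. For miR-1-3p the leading names were miR-3571-5p (r = 0.977), miR-133-3p (0.977), miR-1c-3p (0.970), miR-133b-3p (0.925) and miR-499-5p (0.924). For miR-206-3p they were its own 5p strand, miR-206-5p (0.958), miR-133b-3p (0.942), miR-133-3p (0.890), miR-133c-3p (0.859) and miR-133a-3p (0.857). miR-206-3p was 19th in the list of miR-1-3p (r = 0.800). The r values describe 8 libraries of unequal depth, and several of these names share nearly the same sequence.

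The minor 5p strands were rare. miR-206-5p had 366 reads in slow muscle (190 RPM), 15 in eye, 3 in brain and 1 in heart. As a share of all miR-206 reads with an arm, that was 0.546% in slow muscle (95% Wilson interval 0.493% to 0.605%) and 1.54% in eye (0.933% to 2.52%), a difference by Fisher's exact test (adjusted p = 0.0015 over 3 pairs). No read of miR-1 was recorded under a 5p arm. Most of its 427 precursor-only reads, however, overlapped the 5p strand, and 47 overlapped the 3p strand. With these assigned, slow muscle had 0.194% of miR-1 on the 5p strand (0.172% to 0.219%) and heart 0.0663% (0.0524% to 0.0837%), with Fisher's exact adjusted p = 8.4e-18 over 15 pairs.

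The ovary stood apart in the miR-1 5p strand. It had 24 of 398 miR-1 reads on that strand, or 6.03% (4.09% to 8.82%), and differed from each of the other 5 libraries with at least 100 reads (largest Fisher's exact adjusted p = 6.7e-15). The sequence of 22 nt shown first had 134 reads in slow muscle, 27 in heart and 0 in ovary. The form with 1 more base at the 3′ end had 54 reads in slow muscle, 26 in heart and 16 in ovary, and 2 in intestine. It is shown for that reason.
miR-1 5p strand, 23 nt: aCATACTTctttatgtacccata

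The 5′ start, which sets the seed, hardly varied. Among miR-1-3p reads, 99.3% began at the first base of the sequence shown, and for miR-206-3p 99.5% did. In slow muscle 0.670% of the strand had a shifted start (0.629% to 0.714%), in heart 0.711% (0.662% to 0.764%) and in eye 0.621% (0.443% to 0.871%). Intestine had 1.07% (0.734% to 1.57%), brain 1.57% (1.10% to 2.24%) and ovary 1.60% (0.737% to 3.46%). Brain differed from slow muscle, heart and eye (Fisher's exact adjusted p = 0.00049, 0.000775 and 0.0014), on 30 shifted reads, and the other 12 pairs did not pass. The most frequent shift was the loss of the first base, in 0.528% of miR-1-3p reads. For miR-206-3p, no pair among slow muscle (0.468%), eye (0.520%) and heart (1.96%, from 2 of 102 reads) passed the test. The rare miR-206-5p was less fixed, with 11.2% of its 366 slow muscle reads (8.37% to 14.8%) starting 1 base later.

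The 3′ end, where the annotation allowed more change, was more variable, and more so in miR-206-3p than in miR-1-3p. The share of miR-1-3p taken by the most abundant sequence was 84.4% in eye, 82.0% in heart, 78.1% in slow muscle, 75.8% in intestine, 73.7% in brain and 66.0% in ovary. Of the 15 pairs, 14 differed by Fisher's exact tests, the exception being brain and intestine (adjusted p = 0.13). For miR-206-3p it held 55.8% in slow muscle (55.4% to 56.2%), 51 of 102 reads in heart (40.5% to 59.5%) and 40.4% in eye (37.4% to 43.6%). Slow muscle and eye differed (Fisher's exact adjusted p = 1.0e-20), and the other pairs did not pass.

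**Figure D4:**
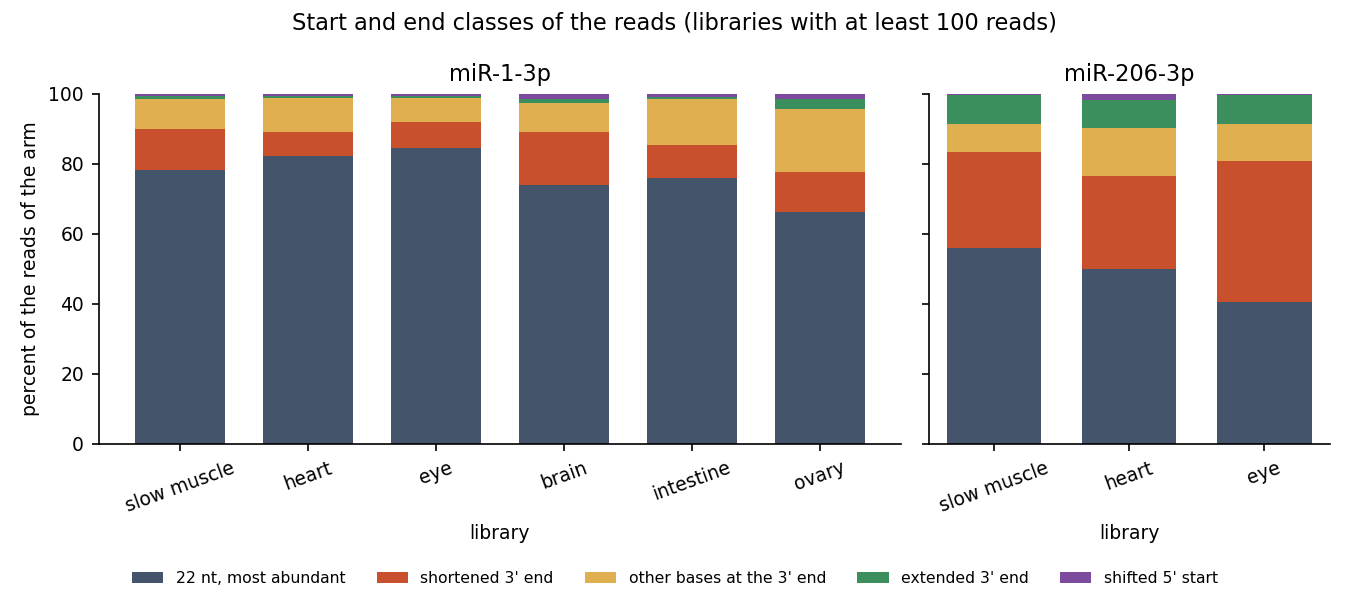
Percent of the reads of miR-1-3p (left) and miR-206-3p (right) by class of start and end, in libraries with at least 100 reads of the strand: the most abundant 22 nt sequence, a shortened, altered or extended 3′ end, and a shifted 5′ start. The most abundant sequence takes 66.0% to 84.4% of miR-1-3p reads and 40.4% to 55.8% of miR-206-3p reads.

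Reads shortened at the 3′ end ended mostly 2 bases early. These 20 nt forms are shown as the most frequent shortened form of each strand, and they were chosen after the lengths had been seen.
miR-1-3p, 20 nt: tGGAATGTaaagaagtatgt
miR-206-3p, 20 nt: tGGAATGTaaggaagtgtgt

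In slow muscle the 20 nt form held 9.26% of miR-1-3p (9.10% to 9.41%), in heart 5.16% (5.03% to 5.30%) and in eye 4.35% (3.83% to 4.93%). It held 7.48% in intestine (6.50% to 8.60%), 9.36% in ovary (6.81% to 12.7%) and 10.7% in brain (9.38% to 12.2%). Slow muscle, intestine, ovary and brain were thus above heart and eye, and 12 of the 15 pairs differed. For miR-206-3p, the order of slow muscle and eye was the opposite: the 20 nt form held 17.9% in slow muscle (17.6% to 18.2%) and 28.6% in eye (25.8% to 31.5%; Fisher's exact adjusted p = 1.7e-15). Heart had 12.7% (7.60% to 20.6%) and did not differ from slow muscle (Fisher's exact adjusted p = 0.20). Ends 1 base early were rare in miR-1-3p (0.250% of reads) and more frequent in miR-206-3p (5.48%). Ends 1 base late took 1.37% and 7.78% of reads.

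The last base also varied. Among 22 nt reads that share bases 1 to 21 of miR-1-3p, whatever their name, the last base was A in place of T (T22A) at a share of 5.38% for eye (4.78% to 6.05%), 7.44% for slow muscle (7.30% to 7.59%) and 8.11% for heart (7.94% to 8.29%). Brain had 8.13% (6.87% to 9.58%), intestine 12.6% (11.3% to 14.1%) and ovary 16.1% (12.5% to 20.6%). Intestine and ovary differed from each of the other 4 libraries but not from each other (16.1% against 12.6%, Fisher's exact adjusted p = 0.11). For C as the last base (T22C), ovary and intestine parted. The share was 6.52% in ovary and 0.977% in intestine, the lowest (Fisher's exact adjusted p = 4.2e-08), and it was 1.41% to 1.90% in the other 4 libraries. Ovary differed from each of the 5 others (largest Fisher's exact adjusted p = 6.8e-06). For miR-206-3p, A in place of the last G (G22A) was found in 12.2% of such reads in slow muscle (11.9% to 12.6%) and 19.8% in eye (16.5% to 23.6%; Fisher's exact p = 2.7e-06). This comparison was also chosen after the sequences had been seen, and the source of these bases was not tested.

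The A17G form filed as mir-3571 differed from miR-1-3p in which of slow muscle and heart was higher. By the level of its name, the libraries below these ran in the order of miR-1-3p. Of the 164 names ranked, it was the most like miR-1-3p (r = 0.977). Its name had 1298.5 RPM in heart (3274 reads) and 1044 RPM in slow muscle (2009 reads), so heart was higher by 1.24 times (1.18 to 1.32), while miR-1-3p was higher in slow muscle. As a share of its own reads and those of the most abundant miR-1-3p sequence, it was 1.77% in slow muscle (1.69% to 1.84%) and 3.61% in heart (3.49% to 3.74%; Fisher's exact adjusted p = 1.7e-146). Eye had 3.57% (3.07% to 4.14%), brain 3.30% (2.50% to 4.35%), intestine 2.24% (1.66% to 3.01%) and ovary 3.89% (2.13% to 7.01%). Eye and brain did not differ from heart (adjusted p = 0.94 and 0.79, Fisher's exact test). The share was lowest in slow muscle, where it differed from that of heart, eye and brain but not from that of intestine or ovary (adjusted p = 0.22 and 0.068, Fisher's exact test). The origin of this form was not tested.

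**Figure D5:**
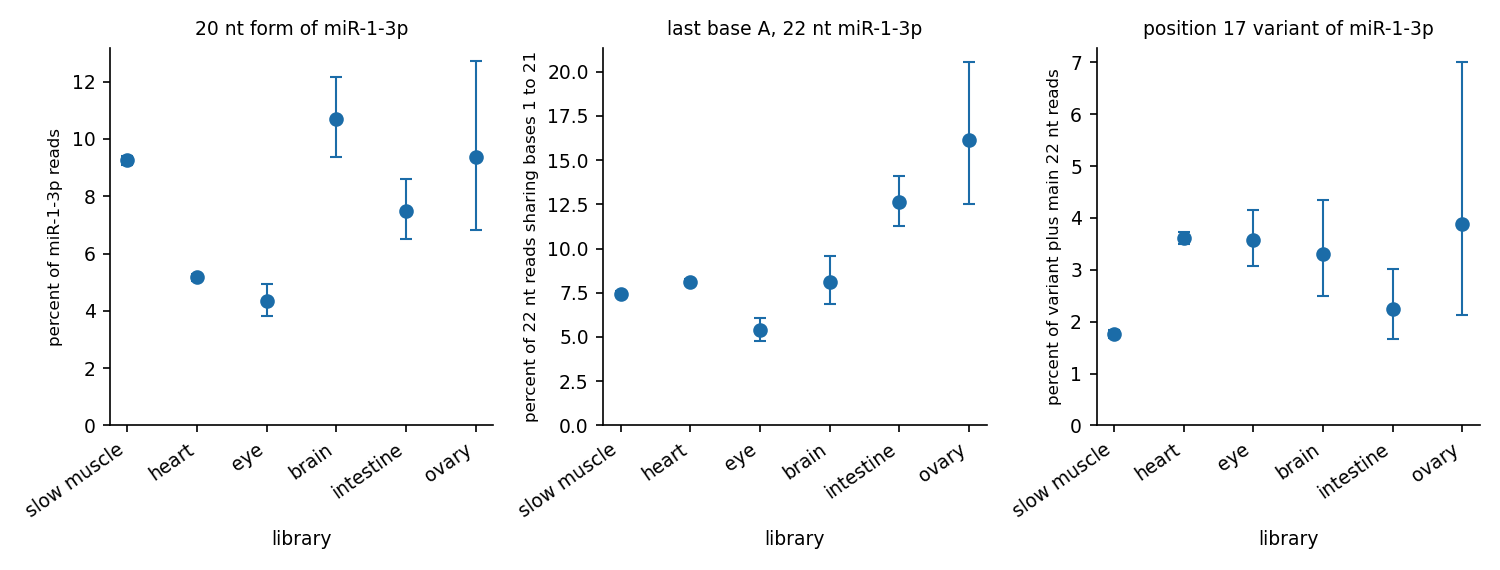
Shares of 3 variants of miR-1-3p in the 6 libraries with at least 100 reads, with 95% Wilson intervals: the 20 nt form (left), the last base A among 22 nt reads (middle) and the A17G form filed as mir-3571 (right). The 20 nt form is at 9.26% in slow muscle and 5.16% in heart, the last base A reaches 16.1% in ovary, and the A17G form is at 1.77% in slow muscle and 3.61% in heart.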

How the data were processed

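Small RNA of 0.1 g of each tissue was sequenced on a SOLiD 3 instrument. The authors trimmed adapters, kept 18 to 25 nt reads and matched them to miRBase 19.0 with CLC genomics workbench (0 mismatches, 5′ end changed by up to 2 nt and 3′ end by up to 4 nt). The deposited files give counts of reads per distinct sequence, with its length, its mismatches, the miRNA name, the species of the entry and the match type (mature 5′, mature 3′ or precursor), for 8 libraries.

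From these, counts of names mir-1 and mir-206 (copy suffixes dropped) were summed by strand and divided by the study's 18 to 25 nt totals (1204477 in liver to 4760693 in ovary), giving RPM. The members and gene lists were chosen with earlier results of these data known. Named miRNAs were the members, the 5 names most alike by Pearson's r, the muscle list, and other names with the seed. Sequences shown were the most abundant of each strand and those the end comparisons turn on. Intervals (95% Wilson or Clopper-Pearson) and the limit of 3 reads cover counting error only. Starts and ends were placed by ungapped overlap of at least 14 nt with at most 2 mismatches. Adjusted p-values are Benjamini-Hochberg, and the smallest p written was 1e-300. Python 3.11.15, scipy 1.17.1 and, for TMM factors, edgeR 4.0.16 were used. The binomial test, the ratio intervals and the placement of starts were tested on simulated data with counting error only. Alternatives changed the denominator, the names, the match types and the minimum counts.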

Additional observations from a re-analysis of the deposited data

Results flagged for a closer look

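Other names with the seed of miR-1 and miR-206 carried reads that the comparisons of the members leave out, in data with no control library and above the limit of 3 reads. mir-3571 was at 1298.5 RPM in heart, its highest library, and was above 3 reads in 6 of 8 libraries. The level of mir-1c was 1169 RPM in slow muscle against 842 RPM in heart, so by level it was higher in slow muscle (1.39 times, exact interval 1.31 to 1.47), whereas mir-3571 was higher in heart. As a percent of its own reads and those of miR-1-3p, mir-1c was lower in slow muscle (1.58%) than in heart (1.97%), the same direction as mir-3571 (1.42% and 3.01%). It was above 3 reads in 6 libraries. Its most abundant sequence differs from miR-1-3p by T22C. mir-1a reached 76.4 RPM in slow muscle (147 reads), with T18C in its most abundant sequence. mir-1b reached 18.7 RPM in slow muscle (36 reads). No name mir-206 with a letter was found.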

How the results depend on the processing

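The call and direction of miR-1-3p and miR-206-3p between slow muscle and heart, and between slow muscle and eye, were the same under 7 alternatives, with slow muscle to heart ratios of 1.61 to 1.74 for miR-1-3p and 795 to 856 for miR-206-3p. Some of these left the members' reads and totals as they were and could not undo those calls. They were the minimum of 100 RPM, the minimum of 10 reads, and leaving out sequences assigned to several miRNAs, of which the members had 0. miR-206-3p passed the rule between heart and eye (heart to eye 0.0551, 0.0452 and 0.0583) and between eye and brain (62.9, 68.3 and 59.6) with annotated totals, TMM-scaled totals and a minimum of 100 RPM, which its level then met. The miR-206-3p to miR-1-3p ratio fell with reads identical to a mature entry, to 0.387 in slow muscle, 0.000750 in heart and 0.108 in eye. In slow muscle it was 0.468 with lettered names, 0.469 with reads holding bases 2 to 18, and 0.470 with mir-3571 added, which was chosen after seeing the data. The share of names called moved most with a minimum of 100 RPM, to 19.7, 27.2, 24.0 and 25.7% (slow muscle and heart, slow muscle and eye, heart and eye, eye and brain). With identical reads, over fewer names tested, it was 11.3% between slow muscle and heart. With annotated totals it was 12.97% (slow muscle and heart), 17.2% (heart and eye) and 17.2% (eye and brain), and with TMM factors 12.6% and 18.2% for the first and last of these. Tau of miR-1-3p fell to 0.899 with annotated totals and to 0.469 on the log2 scale, and tau of miR-206-3p to 0.765 on that scale. The sets of names called under each setting were not compared, and the cause of these changes was not tested.

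The order of libraries was kept except between brain and intestine, ovary and liver, and, for miR-206-3p, brain and liver, which changed places under some settings. Dividing by annotated totals gave levels of miR-1-3p from 2.66 (slow muscle) to 38.8 (testis) times those reported. Of 76 alternative values for shares of arms, starts and ends, 69 lay inside the interval of the main value, but some alternatives changed few or no reads of a strand. Outside it lay the 5p share of miR-1 in every library tested once overlapping precursor-only reads were added, as in ovary (0 to 6.03%). The shifted start of miR-206-3p in slow muscle also lay outside (0.413%). Precision was lowest where few miR-1-3p reads were counted, in testis (4), liver (74) and ovary (374). The ovary had the most reads of 18 to 25 nt of the 8 libraries (4760693), so its low count went with a low level by RPM. Only 11.3% of those reads (537629) were annotated. Within annotated reads miR-1-3p held 0.0696% in ovary, against 0.0169% in liver. No paired analysis was possible because each tissue has 1 library, and no replicate could be left out.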
